A study of Mus musculus with 4 samples.

Results

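Zbtb16-positive CD25+ thymocytes are cells of the CD25+ sort gate with at least 1 UMI of Zbtb16, where a UMI (unique molecular identifier) marks 1 captured transcript. They were chosen by their Zbtb16 UMIs alone, among barcodes with at least 500 detected genes and under 10% of their UMIs from mitochondrial genes. The rule found 244 of 10110 kept cells in the library labelled PD-1 knockout and 8 of 8215 in the wild-type library, 252 of the 18325 kept CD25+ cells and of 23210 kept cells in the series. Since Zbtb16 UMIs chose the cells, its level in them is a description and supports nothing. A single UMI divides inside from outside: 200 of the 244 knockout-labelled cells had 1 Zbtb16 UMI, 28 had 2 and 16 had 3 or more, with 7 the highest, and every comparison cell had 0.

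The study measured transcripts of single thymocytes from C57BL/6J mice aged 3 weeks that were either PD-1 knockout or wild type. Per the labels' protocols, each pool held thymi of 4 mice, cells bearing CD8 were depleted, and live CD4+ HSA+ CD73- cells were sorted as CD25+ or CD25-. The stains listed there include CD74 and not CD73. Each combination of genotype and gate was 1 library made with a 5′ kit, so the 4 mice of a pool cannot be told apart, cells of 1 library are not replicates, and no difference below has a replicate check or a p-value. Intervals are at 95% and cover counting error only.

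The kept CD25+ libraries held 78488935 UMIs in the knockout-labelled library, with a median of 6169.5 per cell, and 59339217 in wild type, with a median of 5951. Pdcd1, the targeted gene encoding PD-1, had 18.3 CPM (counts per 1e6 UMIs, summed over cells) in all kept knockout-labelled CD25+ cells, against 15.7 CPM in wild type. Which exons were removed is not given in the labels, and 5′ reads may fall outside them, so this level checks nothing about the genotype and the library is called knockout-labelled throughout. The CD25+ libraries shared 118 barcodes, of which 3 were Zbtb16-positive in the knockout-labelled library and 0 in wild type. No barcode was Zbtb16-positive in both.

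Zbtb16 encodes PLZF, a BTB zinc finger transcription factor that directs the effector programme of NKT, MAIT and some gamma-delta T cells and marks precursors of innate lymphoid cells. In the thymus, cells that have not yet begun to make CD4 or CD8 pass through the DN2 stage, with Kit, CD25 and factors of blood progenitors such as Lyl1, Hhex and Spi1, and then the DN3 stage. DN3 cells lose Kit, keep CD25, rearrange the T cell receptor beta gene with Rag1 and Rag2, and express Ptcra, the surrogate alpha chain of the pre-T cell receptor, and targets of Notch.

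Zbtb16 lies on the minus strand of chromosome 9, 48654297 to 48836222 (mm10). Its positive cells made up 2.41% of the knockout-labelled CD25+ cells (2.12% to 2.73%) and 0.0974% of wild type (0.0421% to 0.192%). Summed over all kept cells, Zbtb16 had 313 UMIs or 3.99 CPM in the knockout-labelled library and 11 UMIs or 0.185 CPM in wild type. In the CD25- libraries 2 of 1767 knockout-labelled and 2 of 3118 wild-type cells had Zbtb16. With 1 library of each kind, genotype, mice and handling cannot be told apart.

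The contrast was also present at equal depth. After every cell was thinned to 1500 UMIs, 0.505% of 9907 knockout-labelled and 0.0125% of 8029 wild-type cells retained a Zbtb16 UMI, and 203 and 186 shallower cells of these libraries were left out. Asking for 2 UMIs left 44 knockout-labelled and 2 wild-type cells. The filter on genes and mitochondrial UMIs had removed 6 further knockout-labelled barcodes with Zbtb16 and 0 in wild type.

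The name CD25+ held at the transcript level, whereas the CD4+ gate did not. Il2ra, which encodes CD25, had a UMI in 240 of the 244 knockout-labelled Zbtb16-positive cells, with a median of 11 UMIs, and in 94.4% of the comparison cells described below, with a median of 7. The positive cells were deeper: at 1500 UMIs per cell the shares were 68.4% of positive and 76.7% of comparison cells. Il2ra levels were 1085 against 1187 CPM. Cd4 had a UMI in 8 of the 244 cells, Trac, which encodes the constant region of TCR alpha, in 8, and 233 had neither. This is not particular to the positive cells: 8898 of all 10110 kept cells of the library had neither, and 6574 of 8215 in wild type. The comparison cells were therefore the 8665 cells of the same library without a UMI of Zbtb16, Cd4 or Trac, so levels of Cd4 and Trac between these groups follow from the choice of cells.

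The positive cells were deeper than the comparison cells, and this stands beside every result below. Their median was 12687 UMIs and 3890.5 genes per cell, against 6079 UMIs and 2585 genes in comparison cells, and mitochondrial shares were 2.51% and 3.06%. A cell with more UMIs is more likely to show 1 of any gene. The summed Zbtb16 level was also higher in deeper cells: 2.02 CPM in knockout-labelled cells under 3000 UMIs, 1.87 CPM from 3000 to 6000, 2.96 CPM from 6000 to 12000, 5.49 CPM from 12000 to 24000 and 9.94 CPM above that. Gene levels are also given after weighting the comparison cells to the positive cells' distribution of UMIs per cell. What part depth has in the differences was not tested beyond these weighted and thinned values.

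Zbtb16 was graded with genes of early progenitors. Cells were sorted by how many of 7 DN2 markers had a UMI: Kit (the stem cell factor receptor), Lyl1, Hhex, Spi1, Mef2c and Bcl11a (transcription factors) and Cpa3 (a carboxypeptidase). These strata were chosen after values were seen. In the knockout-labelled library the Zbtb16-positive share was 0.926% of 6693 cells with 0 markers, 2.43% of 2391 with 1, 7.03% of 669 with 2, 14.1% of 198 with 3 and 30.8% of 159 with 4 to 7 (23.7% to 38.6%). Levels went the same way, with 1.52, 3.09, 5.80, 13.1 and 29.1 CPM in that order. Depth rose along the same strata, with medians of 5371 UMIs at 0 markers and 18880 at 4 to 7.

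**Figure D1:**
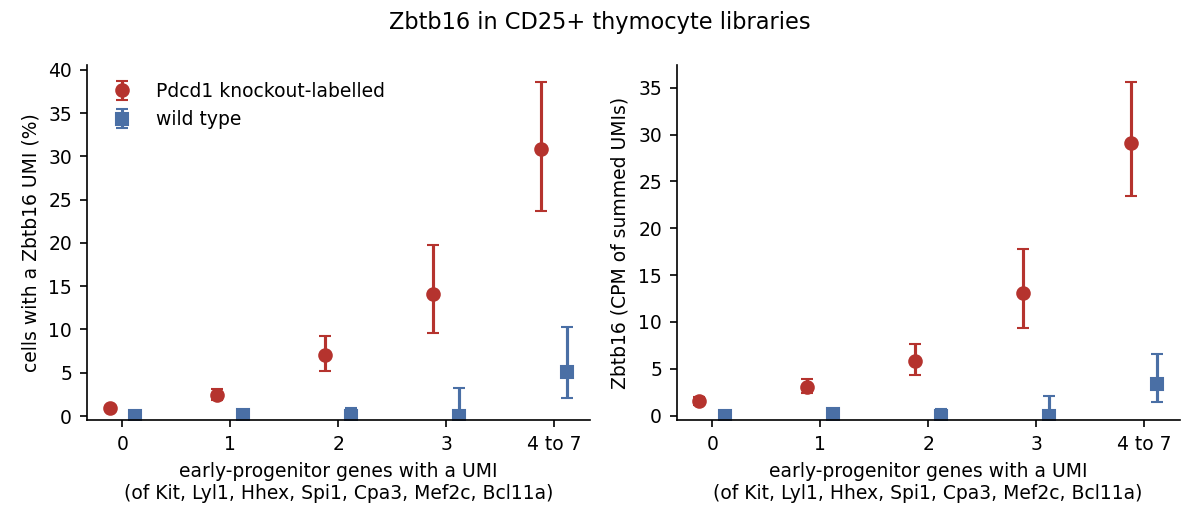
Share of CD25+ cells with a Zbtb16 UMI (left, percent) and summed Zbtb16 level (right, CPM) by the number of 7 early-progenitor genes with a UMI in the cell, for the knockout-labelled (circles) and wild-type (squares) libraries; bars are exact 95% counting intervals. Both measures are highest at 4 to 7 genes in both libraries, with 29.1 CPM for the knockout-labelled library and 3.36 CPM for wild type.

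In wild type 7 of the 8 positive cells were at the top of this scale. Of 137 wild-type cells with 4 to 7 markers these 7 made up 5.11% (2.08% to 10.2%) at 3.36 CPM, and the knockout-labelled level there was 8.64-fold that of wild type (4.21 to 20.6). Among 5877 wild-type cells with 0 markers none had Zbtb16, which allows up to 0.0510% of cells and 0.0845 CPM. The exact interval of the ratio in cells without a marker began at 14.3-fold. Cells with 4 or more markers were 1.57% of the knockout-labelled and 1.67% of the wild-type library.

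In droplet data free RNA gives stray UMIs, so the share was also taken in cells of other kinds, most of which are not known for Zbtb16. In the knockout-labelled library 2 of 461 cells with a Foxp3 UMI, the regulatory T cell factor, had Zbtb16, 0.434% (0.0526% to 1.56%) at a median of 4699 UMIs and 0.664 CPM (0.0805 to 2.40). Cells with both Cd4 and Trac had it in 5 of 358, 1.40% (0.455% to 3.23%) at a median of 7462.5 UMIs and 1.86 CPM (0.683 to 4.05). The 0.926% and 1.52 CPM (1.17 to 1.95) of cells without a DN2 marker lie within these intervals, so no level above that of these cells was detectable. The intervals rest on 2 and 6 Zbtb16 UMIs and are wide, 1 of the Cd4 and Trac cells had 4 DN2 markers and 9 Cpa3 UMIs, and the part of free RNA was not tested. The levels at 2 or more markers lie above both intervals, in cells of greater median depth (11959 UMIs at 2 markers). Of the 244 positive cells 62 had no DN2 marker, 58 had 1, 75 had 2 to 3 and 49 had 4 to 7.

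Dividing the positive cells by their number of Zbtb16 UMIs is a description only, since these UMIs chose the cells. Of the 200 cells with 1 UMI 60 had no DN2 marker and 26 had 4 or more, whereas of the 16 cells with 3 or more UMIs none had 0 markers and 12 had 4 or more. Medians of UMIs per cell were 11012 and 21247 in these sets, so depth rose as well, and its part was not tested.

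Across genes, 7027 had at least 20 CPM in either group and were compared, leaving out Zbtb16, Cd4 and Trac. Counted as called were genes whose CPM differed by at least 1.5-fold. Of all genes compared 181 (2.58%) were higher and 432 (6.15%) lower in Zbtb16-positive than in comparison cells. With comparison cells weighted to the same depths, 124 of 6803 genes (1.82%) were higher and 145 (2.13%) lower, so 46.1% of called genes were higher there against 29.5% without weighting, and 41.1% after centring on the median gene. The weighted calls kept 90 of the 181 higher and 66 of the 432 lower genes, and none of either set changed sides.

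**Figure D2:**
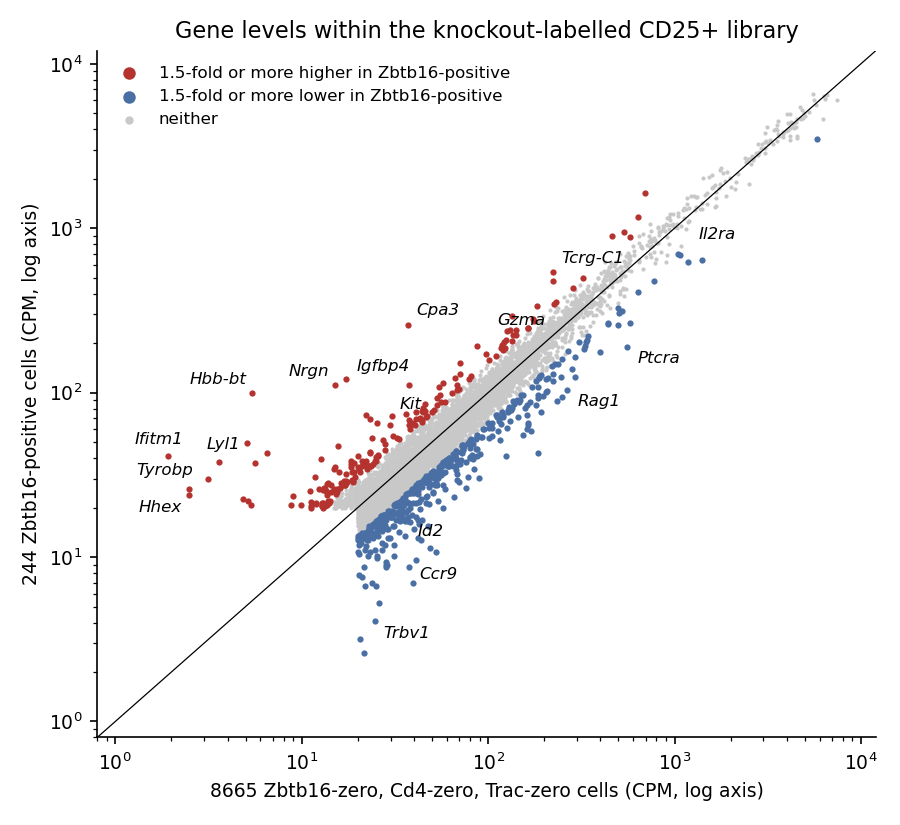
Level of each of the compared genes in 244 Zbtb16-positive cells (vertical, CPM on a log axis) against 8665 Zbtb16-zero, Cd4-zero, Trac-zero cells (horizontal, CPM on a log axis) of the knockout-labelled CD25+ library; each point is 1 gene and the line marks equal levels. Early-progenitor genes such as Cpa3, Lyl1 and Hhex lie above the line, Ptcra and Rag1 below it, and Il2ra close to it.

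Of the 15 genes named as highest in Zbtb16-positive cells, Lyl1, Hhex, Cpa3 and Tyrobp are in the list of early progenitor genes and the other 11 are not. Among transcription factors, Lyl1, a basic helix-loop-helix factor of haematopoietic progenitors, was at 38.0 CPM in positive and 3.62 CPM in comparison cells, a 10.5-fold difference (8.42 to 13.1). Hhex, a homeobox factor, was at 23.8 against 2.49 CPM, or 9.56-fold. Spi1, the factor PU.1 of early and myeloid progenitors, lay under the level needed for a call, at 15.7 against 3.86 CPM. After weighting to depth Lyl1 was at 5.66-fold and Hhex at 5.72-fold. Both reached the level for comparison only through the positive cells, so these ratios are a description.

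Cpa3 had the most UMIs of this group. It encodes carboxypeptidase A3, a granule protease of mast cells that early haematopoietic progenitors also transcribe. Of the 244 positive cells 124 had Cpa3, with at most 47 UMIs in a cell, against 730 of 8665 comparison cells, with at most 30. Its level was 258 CPM in positive and 37.1 CPM in comparison cells, 6.94-fold (6.42 to 7.50), and 4.22-fold with weighting. At 1500 UMIs per cell it was found in 19.7% of positive (14.9% to 25.2%) and 2.43% of comparison cells. No other gene of the mast cell and basophil list joined it: Mcpt4, Mcpt8, Fcer1a, Ms4a2, Gata2, Prss34 and Cma1 had 0 UMIs in the positive cells and Hdc had 1. Kit and Fcer1g, also genes of mast cells but outside this list, were higher, at 72.5 against 30.4 CPM and 18.6 against 8.42 CPM.

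The promoter of Cpa3 is shown because Cpa3, Lyl1 and Hhex moved together and promoters of all 3 were found among the RefSeq sequences (GRCm38.p6), which hold none for Zbtb16 in the set used here. The window runs 250 bases before to 50 after the start, at chr3:20242132-20242431 on the minus strand. Capitals mark, 5′ to 3′, an E-box (CAGCTG) and a GATA motif (AGATAA), each searched on both strands without overlap between them.
Cpa3: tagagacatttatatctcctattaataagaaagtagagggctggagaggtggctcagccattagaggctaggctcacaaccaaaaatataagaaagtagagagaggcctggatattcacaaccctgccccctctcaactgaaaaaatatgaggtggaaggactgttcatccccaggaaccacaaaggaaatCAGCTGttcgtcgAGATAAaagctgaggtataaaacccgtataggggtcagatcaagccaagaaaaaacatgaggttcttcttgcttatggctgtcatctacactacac
Of 32851 promoters of this length, 16.3% hold that E-box and 11.2% that GATA motif. An ETS motif (GGAAGT) was also searched, which 23.8% of promoters hold, and has no match in the Cpa3 window. The Lyl1 and Hhex windows have no match to any of the 3 motifs.

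Surface, adaptor and secreted genes led the rest. Ifitm1, an interferon-induced membrane protein, had the largest ratio under the naming rule, at 40.9 CPM in positive and 1.91 CPM in comparison cells or 21.4-fold (16.7 to 27.5), which weighting brought to 7.62-fold. Few cells carried it: 3.28% of positive and 0.177% of comparison cells at 1500 UMIs. Tyrobp, the signalling adaptor DAP12 of NK and myeloid cells and of early progenitors, was at 29.9 against 3.13 CPM, with a UMI in 29 of the 244 positive and 88 of the 8665 comparison cells. Igfbp4, a binding protein of insulin-like growth factors, was at 121 against 17.3 CPM, 6.99-fold (6.23 to 7.83). It was more widespread, in 10.2% of positive and 1.60% of comparison cells at 1500 UMIs. Nrgn, a calmodulin-binding protein named neurogranin, was at 112 against 15.04 CPM, 7.44-fold.

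The other genes that the rule named on this side differed by 3.15-fold to 10.5-fold. They were Drc7, a subunit of the dynein regulatory complex of cilia, at 26.1 against 2.49 CPM, and Adgrg3, an adhesion G protein-coupled receptor, at 49.3 against 5.08 CPM. Napsa, an aspartic protease, was at 37.4 against 5.60 CPM and Cst7, the protease inhibitor cystatin F, at 43.2 against 6.53 CPM. Bpifc, Rgs18, a regulator of G protein signalling, the actin cross-linker Flna and the focal adhesion gene Tes completed them. All 15, picked by their ratio before weighting, were at least 2.62-fold higher after weighting to depth, which is likewise a description.

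Of the 22 listed early T progenitor and DN2 genes 10 reached the level for comparison, of which 7 were higher and 0 lower. Their median log2 ratio was 1.21, and 1.14 with weighting, beside −0.05 for all genes compared. Lyl1, Hhex, Tyrobp and Bcl11a reached that level only through the positive cells, so they had to be higher, and the count and median are a description and support nothing. Besides those above, Kit was at 72.5 CPM in positive and 30.4 CPM in comparison cells, 2.39-fold (2.08 to 2.72). Nfe2, an erythroid and progenitor factor, was at 53.1 against 23.8 CPM and Bcl11a at 33.1 against 19.1 CPM. Runx1, Myb and Erg stayed within 1.5-fold. Flt3, Gata2 and Il1rl1 had 0 UMIs in the positive cells.

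Genes of the DN3 stage were lower. Of 21 listed pre-T cell receptor, recombination and Notch genes 19 were compared, of which 12 were lower and 0 higher, at a median log2 ratio of −0.63. Weighting to depth moved the median to −0.28, with 6 lower and 1 higher. Ptcra was at 190.3 CPM in positive and 554 CPM in comparison cells, 2.91-fold lower, and 1.86-fold lower with weighting. At 1500 UMIs per cell it was found in 26.2% of positive (20.8% to 32.2%) and 55.8% of comparison cells. Rag1, a subunit of the recombinase, was at 104 against 266 CPM, 2.56-fold lower, and in 12.3% against 33.3% of thinned cells. The other recombination genes did not go together, since Rag2 was at 45.5 against 87.0 CPM but Dntt, which adds bases at junctions, was at 1007 against 1035 CPM.

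Several Notch pathway and CD3 genes were also lower. Dtx1, a Notch target, was at 41.2 against 125 CPM, 3.05-fold lower, Notch3 at 55.1 against 154 CPM and Hes1 at 96.9 against 153 CPM, though Hes1 was only 1.06-fold lower with weighting. The targets Nrarp, at 12.5 against 9.84 CPM, and Hes5, at 5.80 against 5.58 CPM, lay under the level for comparison. Cd3d was at 640.2 against 1407 CPM and Cd3e at 622 against 1175 CPM, while Cd3g, at 1851 against 2503 CPM, was not called. Cd3e had a UMI in 61.9% of positive and 80.3% of comparison cells at 1500 UMIs.

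Gene segments of the T cell receptors did not go together. Constant segments of the gamma chain were higher or near: Tcrg-C1 at 543 CPM in positive and 224 CPM in comparison cells, 2.43-fold, Tcrg-C2 at 249 against 163 CPM, 1.53-fold, and Tcrg-C4 at 174 against 129 CPM. Trdc, the constant segment of the delta chain, was at 185 against 124 CPM, just under 1.5-fold, and Trbc2 at 1225 against 981 CPM. Of the variable segments, Trbv13-1 was at 2.61 against 21.6 CPM, 8.27-fold lower, and Trbv1 at 4.06 against 24.7 CPM, 6.08-fold lower, the lowest 2 genes under the rule, and weighting made both differences larger, at 9.99-fold and 8.75-fold. Outside the rule, chosen after values were seen, Tcrg-V4 was at 65.6 against 163 CPM, Tcrg-V1 at 33.6 against 67.6 CPM and Trgv2 at 304 against 506 CPM. The constant segments of the gamma chain are near-identical in part, so reads may be split between them.

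The remaining low genes under the rule were Ccr9, the receptor for the chemokine CCL25, at 8.70 CPM in positive and 37.8 CPM in comparison cells, 4.34-fold lower, and Slc5a9, a sugar transporter, at 43.2 against 186 CPM, 4.30-fold lower. Vwce, Pdgfa (a growth factor), Fam163b, Cldn4 (a tight junction protein) and Arhgef10l were 4.30-fold to 5.71-fold lower. Traf1 and Nfkb2, of the NF-kappa-B pathway, were at 6.67 against 24.9 CPM and at 12.8 against 43.7 CPM. Prag1, Adamts17, AA467197 and Atoh8 were 3.24-fold to 3.43-fold lower. With weighting Atoh8 was 1.43-fold lower and fell short of a call, and the other 12 of these genes were 1.70-fold to 2.99-fold lower. Apart from Slc5a9, the 15 low genes, Trbv13-1 and Trbv1 included, were under 20 CPM in positive cells and were compared only through the comparison cells. They had to be lower, so their ratios are a description and support nothing. Trbv13-1 and Trbv1 rest on 9 and 14 UMIs in positive cells.

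**Figure D3:**
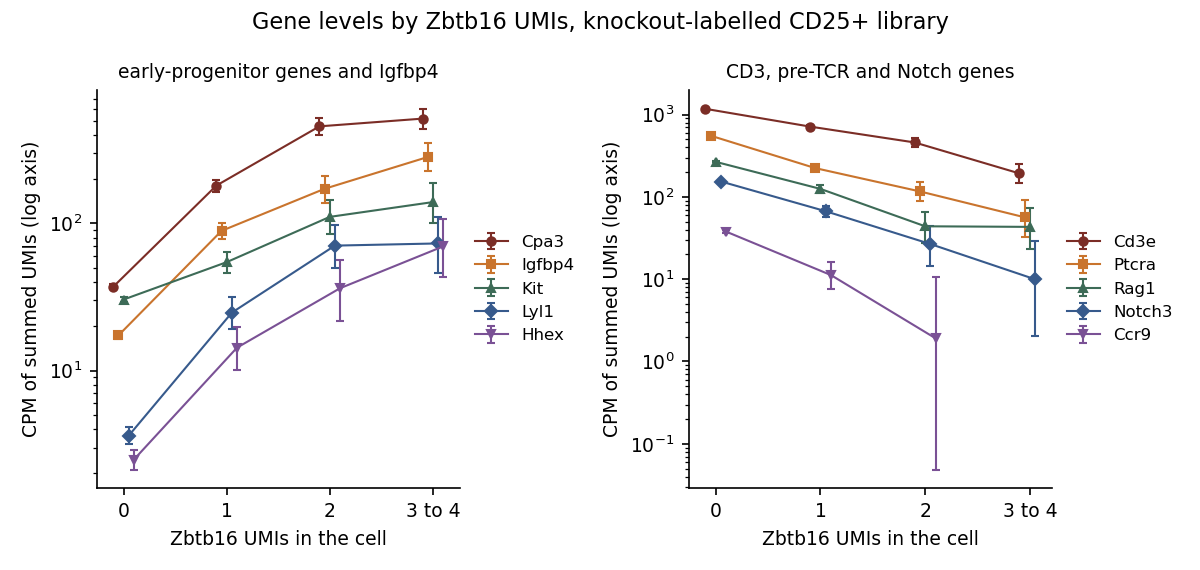
Summed level (CPM, log axis) of 5 progenitor-linked genes (left) and 5 CD3, pre-T cell receptor and Notch genes (right) in knockout-labelled CD25+ cells with 0, 1, 2 and 3 to 4 Zbtb16 UMIs (8665, 200, 28 and 14 cells). The 8665 cells at 0 are the comparison cells, which also had no Cd4 or Trac UMI, a limit not set on the others. Bars are exact Poisson 95% intervals. Cpa3 stands at 515 CPM and Ptcra at 56.5 CPM in cells with 3 to 4 UMIs; Ccr9 had 0 UMIs there and has no point.

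As a description, since Zbtb16 UMIs chose the cells, levels are given by the number of these UMIs, from comparison cells upward; median depth rose alongside, at 6079, 11012, 16054 and 21247 UMIs. Cpa3 was at 37.1 CPM in cells with 0 Zbtb16 UMIs, 181 with 1, 456 with 2 and 515 with 3 to 4. Lyl1 was at 3.62, 24.8, 70.6 and 73.1 CPM and Igfbp4 at 17.3, 89.0, 172 and 282 CPM in the same order. Ptcra ran the other way, at 554, 224, 116 and 56.5 CPM, and so did Cd3e, at 1175, 714, 458 and 193 CPM. Il2ra showed no such order, at 1187, 1055, 1283 and 1056 CPM. The 2 cells with 5 or more Zbtb16 UMIs had 28 Cpa3 and 8 Lyl1 UMIs between them and 0 of Ptcra, Rag1, Notch3, Cd3e and Cd3d.

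Positive cells with no DN2 marker had DN3 transcripts. They had Ptcra at 438 CPM (385 to 495) and Rag1 at 246 CPM, against 676 and 325 CPM in the 5672 comparison cells with 0 markers, and Tyrobp, Hbb-bt and Ifitm1 at 2, 0 and 0 UMIs. Other genes also lay outside the counting interval of the positive cells: Nrgn at 61.0 CPM (42.5 to 84.9) against 10.9 CPM, Mki67 at 291 CPM (249 to 339) against 164 CPM, Tcrg-C1 at 219.8 CPM against 145 CPM and Cd3e at 956 CPM (877 to 1039) against 1295 CPM. Median depths were 7502 and 5313.5 UMIs in these sets.

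Within cells of 4 or more DN2 markers, Zbtb16-positive and Zbtb16-zero cells also differed. Between 49 positive and 110 Zbtb16-zero knockout-labelled cells of this kind, with median depths of 21689 and 17686 UMIs, 293 of 6817 genes (4.3%) were higher and 301 (4.42%) lower. Ifitm1 was at 120 against 50.1 CPM, 2.39-fold (1.83 to 3.12), Nrgn at 234 against 107 CPM and Igfbp4 at 233 against 121 CPM. Cpa3 was at 513 against 337 CPM and Lyl1 at 105 against 68.1 CPM. Ptcra was at 60.3 against 139.6 CPM, 2.32-fold lower, Cd3e at 264 against 522 CPM and Id2 at 7.20 against 21.4 CPM. Of the 7 DN2 markers, Cpa3 and Lyl1 passed 1.5-fold and the other 5 did not. The interval of the ratio included 1 for Spi1, Bcl11a and Mef2c, the last at 25.2 against 36.5 CPM, and also for Tyrobp, at 81.9 against 64.7 CPM.

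**Figure D4:**
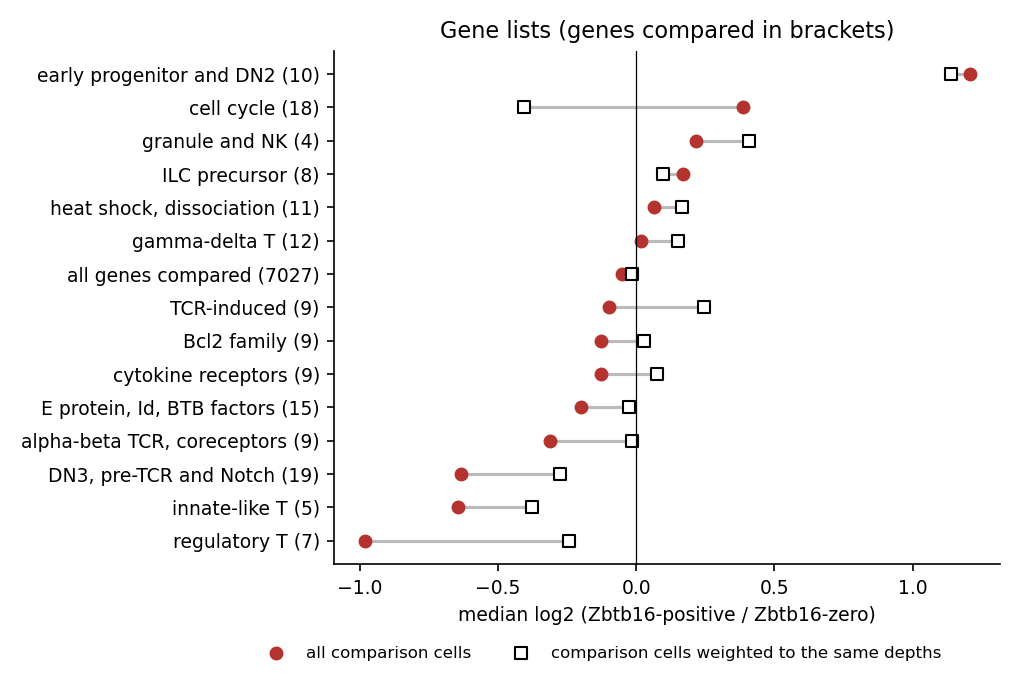
Median log2 ratio of Zbtb16-positive over Zbtb16-zero cells for gene lists with at least 4 compared genes, against all comparison cells (circles) and after weighting these to the same depths (squares). The early progenitor list lies at 1.21 and 1.14, and the cell cycle list at 0.39 and −0.40, on opposite sides of 0.

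The lists for programmes in which PLZF is known were mixed. Of 24 listed genes of innate-like T cells 5 were compared, with 1 higher, 3 lower and a median log2 ratio of −0.65. With weighting 1 was higher, 2 were lower and the median was −0.38. The NK receptors Klrb1c, Klrd1 and Klrk1 and the factor Tbx21 had 0 UMIs in the 244 positive cells, which allows up to 0.870 CPM each at 3 counts. Il2rb, the beta chain of the IL-2 receptor, was at 1.45 against 5.65 CPM and Icos at 2.32 against 5.14 CPM, but comparison cells of the same depths had 1.86 and 3.30 CPM. Id2, a partner-blocking factor needed by innate lymphocytes, was at 16.5 against 36.7 CPM, 2.22-fold lower, and in 1.23% of positive and 6.18% of comparison cells at 1500 UMIs. Of the 5 compared genes Runx3 was the higher one, at 63.8 against 37.8 CPM. Cd44, under the level for comparison, was also higher, at 13.3 against 3.31 CPM, 4.03-fold (2.87 to 5.56) and 2.99-fold with weighting. It had a UMI in 36 of the 244 positive and 2.15% of comparison cells, and in 0.820% and 0.365% at 1500 UMIs.

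Of 22 listed genes of innate lymphoid precursors 8 were compared, with 2 higher and 2 lower. The higher ones were Kit, given above, and Itga4, an integrin chain, at 476 against 222 CPM, and the lower ones Id2 and Ets1. With weighting 2 were higher and 1 lower, and Ets1 was 1.30-fold lower and not called. Gata3 was at 67.9 against 61.4 CPM and Tox at 96.3 against 94.0 CPM. Under the level for comparison, Nfil3 had 11 UMIs, at 3.19 against 1.19 CPM or 2.68-fold (1.29 to 5.07). Rora had 9 UMIs, at 2.61 against 3.30 CPM, and Il18r1 had 1, at 0.290 against 0.137 CPM. Of that list of granule and NK genes, Ccl5 lay under the level for comparison, at 5.22 against 0.351 CPM from 18 and 23 UMIs. That was 14.9-fold (7.57 to 28.8), and 10.9-fold with weighting. Of 4 compared granule and NK genes Nkg7 was higher, at 239 against 131 CPM, and Gzma, granzyme A, was at 235 against 207 CPM. Gzma had a UMI in 179 of 244 positive and 52.4% of comparison cells, but in 28.3% and 20.3% at 1500 UMIs, and its level was 0.949-fold with weighting.

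The gamma-delta lineage list held 2 higher and 1 lower of 12 compared, all receptor segments or Ccr9 given above. Sox13, Sox4 and Id3 stayed within 1.5-fold, Maf had 4 UMIs, and Il23r had 0. Of 7 compared regulatory T cell genes 5 were lower and 1 higher, but only 1 was lower with weighting. Foxp3 had 2 UMIs in positive cells, 0.580 CPM, against 6.50 CPM. Of 9 compared alpha-beta receptor and coreceptor genes 3 were lower, Cd28, Themis and Itm2a, and with weighting 1.

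Cell cycle genes changed direction with the depth of the comparison cells. Of 18 compared 3 were higher and 0 lower, at a median log2 ratio of 0.39, but with weighting 0 were higher, 6 lower and the median was −0.40. Mki67, a marker of cycling cells, had a UMI in 44.7% of positive and 17.8% of comparison cells and was at 266 against 210.5 CPM, while comparison cells of the same depths were at 426 CPM. Mcm3, a replication licensing gene, was at 336 against 183 CPM and Rrm2, of nucleotide synthesis, at 190.0 against 118 CPM, the last reversed with weighting.

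Among the lists of cytokine receptors, E protein and BTB factors, Bcl2 family genes and genes induced by the T cell receptor, medians lay between −0.20 and −0.10 and all moved up with weighting, past 0 for 3 of the 4 (not for the E protein and BTB factors). Their calls were 1 higher and 1 lower of 9, 1 and 4 of 15, 0 of 9, and 0 of 9, the last with 2 higher after weighting. The higher receptor gene was Il12rb2, at 36.8 against 18.4 CPM, and it reached the level for comparison only through the positive cells. Heat shock and dissociation genes gave 0 higher and 1 lower of 11, the nuclear RNA Malat1.

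Several markers of other cells were at 0, though other genes of the same lists were present. Cd79a, Ms4a1 and Pax5 of B cells, H2-Aa and Siglech of antigen-presenting cells and Hba-a1, Hbb-bs, Krt5, Krt8 and Foxn1 of red cells and epithelium had 0 UMIs in positive cells. Of B cell genes Ighm was at 67.0 against 58.2 CPM and Cd79b at 51.6 against 75.6 CPM, and Vpreb1 had 11 UMIs. Irf8, Itgax, Cd74 and Itgam had 21, 3, 3 and 2 UMIs. The 2 compared genes of the B cell list and the 2 of the myeloid list stayed within 1.5-fold. Summed levels of the B cell list were 122 against 141 CPM, of the myeloid list 482 against 504 CPM and of the red cell and epithelial list 101 against 204 CPM, the last nearly all Epcam. The mast cell list summed to 258 against 37.6 CPM, nearly all Cpa3. Hbb-bt, a beta-globin gene outside the naming rule, was at 100.1 against 5.39 CPM, carried by 19 positive cells with at most 118 UMIs and 29 comparison cells. It is near-identical to Hbb-bs, and no alpha-globin UMI of Hba-a1 was found beside it. Mpo, the myeloperoxidase of myeloid progenitors, was higher but under the level for comparison, at 7.54 against 0.366 CPM, 20.6-fold (11.4 to 37.5) and 13.2-fold with weighting, from 26 and 24 UMIs.

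The 8 wild-type positive cells had 13365 to 29070 UMIs. Of these 7 had 4 to 7 DN2 markers, 1 to 25 Cpa3 UMIs and 1 to 8 Lyl1 UMIs each, 0 Trac UMIs, and 11 to 43 Il2ra UMIs. Of the 7, 5 had 0 UMIs of Ptcra, Rag1 and Cd3e. The remaining cell differed in kind: it had 3 Zbtb16 UMIs, 0 of Il2ra and Cpa3, 4 of Cd4, 3 of Trac, 5 of Klrk1, 8 of Cxcr3, 15 of Ly6c2, 7 of Il2rb and 34 of Id2. None of the 8 had Gzma.

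Cells with 4 or more DN2 markers differed between the libraries in more than Zbtb16. Of 6901 genes, 184 (2.67%) were higher and 338 (4.9%) lower in the knockout-labelled than in the wild-type cells. Hhex, at 46.1 against 87.0 CPM, and Tyrobp, at 70.7 against 195 CPM, were lower in the knockout-labelled cells. Cpa3, at 399 against 492 CPM, Lyl1, at 81.2 against 108 CPM, Kit and Bcl11a stayed within 1.5-fold. Ptcra was at 112 against 31.1 CPM, 3.59-fold (2.79 to 4.68), and Cd3e at 431 against 253 CPM.

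Zbtb16 was not the only gene to differ between the libraries within 10 Mb on chromosome 9. In Cd4-zero, Trac-zero CD25+ cells Zbtb16 reached 4.38 CPM in knockout-labelled cells, against 0.145 CPM in wild-type cells, 30.2-fold (14.5 to 75.8). Of 81 compared genes within 10 Mb of it, a window chosen after values were seen, 9 differed by 1.5-fold or more, 11.1%. On the rest of the chromosome 6 of 314 did, 1.91%, and over all 7073 genes 129 (1.82%) were higher and 122 (1.72%) lower. The 3 higher genes were Sorl1, a sorting receptor, at 21.8 against 4.53 CPM, Ppcdc and Arid3b. The 6 lower were Hspa8, a chaperone, at 521 against 2783 CPM, Thy1, a T cell surface protein, at 231 against 778 CPM, Scn4b at 14.9 against 49.5 CPM, and Hyou1, Kmt2a and Il10ra. None of the 9 lay between Il10ra, at −3.40 Mb from Zbtb16, and Ppcdc, at 8.73 Mb. The nearest compared genes, Gm5617, Rbm7 and Rexo2, stayed within 1.5-fold.

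**Figure D5:**
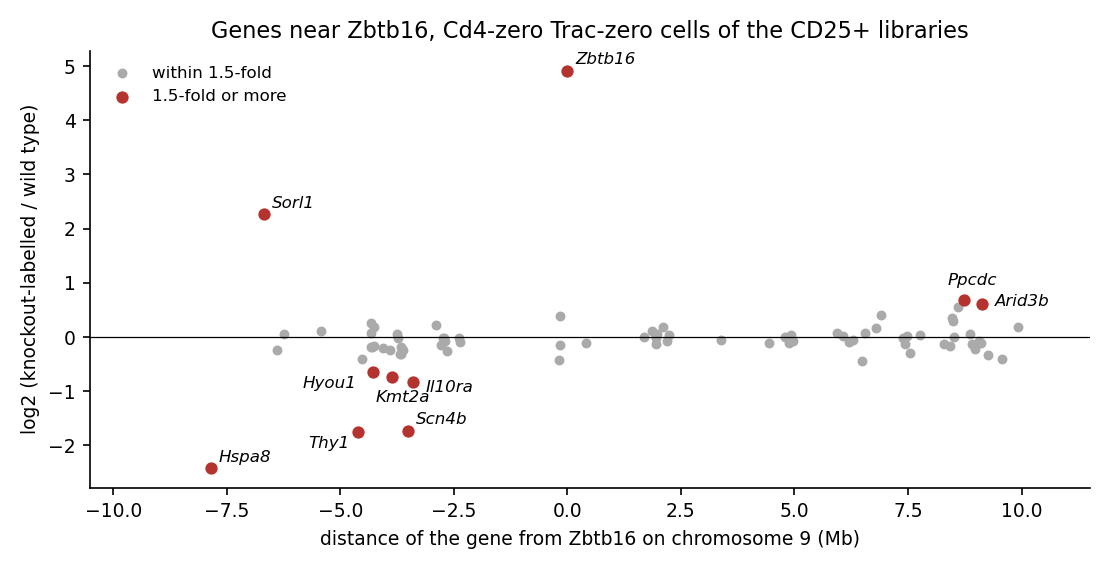
Log2 ratio of knockout-labelled over wild-type level in Cd4-zero, Trac-zero CD25+ cells (vertical) for Zbtb16 and 81 compared genes, by distance from Zbtb16 along chromosome 9 (horizontal, Mb). Zbtb16 is at the top at distance 0; Sorl1, Hspa8, Thy1 and Scn4b lie on 1 side of it, and most of the other genes near 0.

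In the CD25- libraries 2 of 77 genes in the same window differed, Hspa8 and Thy1, 2.60% beside 1.75% higher and 1.18% lower over all genes, and Zbtb16 had 0.519 CPM in knockout-labelled cells, against 0.347 CPM in wild-type cells. What set the neighbouring genes apart between the libraries was not tested.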

How the data were processed

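Single-cell transcript counts of 4 libraries were used, 1 for each genotype and sort gate. The authors deposited raw UMI counts for each gene in each barcode. Cell Ranger 6.2.1 is named in the submitters' processing notes and 6.1.2 in the file headers, with the mouse build mm10. Gene positions came from GENCODE, which held 32235 of the 32285 gene IDs.

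Barcodes with at least 500 genes and under 10% mitochondrial UMIs were kept. UMIs were summed over cells of a group and divided by the group's total to give CPM. Genes of at least 20 CPM in either group were compared, and a ratio of 1.5 or more was called. With 1 library per group no test was made. Intervals are exact Poisson, Clopper-Pearson or conditional binomial at 95%, and a count of 0 was given the limit of 3 counts. Comparison cells were weighted to the positive cells' depth in 10 bins. Shares were compared after thinning to 1500 UMIs. The selection rule has no doublet step, so doublets were kept. Scrublet's own threshold marked 1 of 10110 knockout-labelled and 163 of 8215 wild-type CD25+ cells and was not used, and removing the highest scores was an alternative.

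Genes named were the 15 with the highest and 15 with the lowest ratio among compared genes with at least 100 UMIs over both groups and an interval excluding 1 (without unnamed gene models and mitochondrial, ribosomal protein and hemoglobin genes), 15 genes always named, and the 3 highest and 3 lowest of each of 18 lists with members their counts turn on. Cells and lists were chosen with earlier results of these data known. Scripts were tested on simulated data. Python 3.11.15, numpy 2.4.6, scipy 1.17.1, pandas 2.3.3 and scanpy 1.11.5 were used.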

Additional observations from a re-analysis of the deposited data

How the results depend on the processing

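Zbtb16-positive shares depended on the threshold and depth. With at least 2 UMIs they were 0.435% in the knockout-labelled and 0.0243% in the wild-type CD25+ library, after thinning to 1500 UMIs 0.505% and 0.0125%, and after thinning to 3000 UMIs 0.905% and 0.0279%. Counts of higher and lower genes were 529 and 1055 with at least 2 Zbtb16 UMIs, 6216 and 1978 with no CPM minimum, and 87 and 196 with a minimum of 50 CPM. A gene at 0 UMIs was set to 3 counts, or 0.870 CPM in positive and 0.0458 CPM in comparison cells. With no minimum, a gene absent from the positive cells could thus count as higher, so those counts support nothing. Lower genes numbered 145 with comparison cells weighted to depth and 153 when positive cells with Cd4 or Trac were also left out, and higher genes 338 with cells weighted equally. No called gene changed sides under these alternatives by the call rule.

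The early progenitor median log2 ratio was 2.27 with at least 2 UMIs, 0.92 with equal weights and 1.62 with no minimum. The DN3 median was −1.06 with at least 2 UMIs, −0.28 with depth weighting and −0.30 with Cd4 and Trac also at 0. The cell cycle median was 0.14 with at least 2 UMIs, 0.84 with equal weights, and −0.40 with either depth weighting. With no minimum the innate-like T cell median was 0.11, the red cell and epithelial median 3.60 and the median gene moved to 0.11. Like the 1.62 above, these values count genes at 0 UMIs in positive cells as higher and support nothing. In the red cell and epithelial list Krt5 and Hbb-bs were such genes. Rrm2 was at −0.23 and −0.20 with the depth weightings. The causes of the other shifts were not tested. No paired analysis was possible because each group was 1 library with no replicate numbers to pair.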

Other observations

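Zbtb16 was also found in a few cells of the CD25- gate, which had 0 UMIs of Il2ra and Ptcra. The 2 knockout-labelled cells had 4 and 2 Zbtb16 UMIs, 2 and 3 Trac UMIs, and 6 and 0 UMIs of Cxcr6, a chemokine receptor of effector and innate-like T cells. The 2 wild-type cells had 4 and 1 Zbtb16 UMIs, 0 and 2 Trac UMIs, and 4 and 0 Cxcr6 UMIs.

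Among CD25+ cells with 4 or more DN2 markers, other genes with large ratios between the libraries had these levels. Mid1, a ubiquitin ligase, was at 38.5 CPM in knockout-labelled and 4.62 CPM in wild-type cells, and Bst1, a surface ADP-ribosyl cyclase, at 60.6 and 14.7 CPM. The early response genes Egr1 and Zfp36 were at 35.7 and 20.5 CPM in knockout-labelled cells, against 155 and 161 CPM in wild-type cells. Rgs1 was at 6.00 CPM in knockout-labelled and 66.0 CPM in wild-type cells. These genes were chosen after values were seen, and each value rests on 1 library.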
